A study of Rattus norvegicus with 6 samples.

Results

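Fragments of the nuclear valine tRNAs were described in the rat hippocampus, a part of the forebrain needed for forming memories. They were taken as every listed fragment whose name carries Val and not the mitochondrial prefix, which gave 48 of the 615 fragments in the files. The 48 comprise 27 fragments named Val-AAC, 12 named Val-CAC and 9 named Val-TAC, after the anticodon of the parent tRNA. Another 11 fragments of the mitochondrial valine tRNA are not among them. All rats were Sprague-Dawley, aged 6 to 8 weeks, and had received saline or nicotine, the alkaloid of tobacco, with 3 separately numbered rats per group and 1 library per rat. The nicotine dose, route and duration are not stated in the labels. The question was whether small RNAs cut from tRNAs differ in the hippocampus after nicotine.

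Valine tRNAs carry valine to the ribosome and read the 4 codons that begin with GU. Like other tRNAs they can be cut by nucleases: angiogenin, active under stress, cuts in the anticodon loop and leaves long fragments called tiRNAs, and other cuts in the D loop or T loop leave shorter tRNA fragments (tRFs). Fragments that begin at base 1 of the mature tRNA are called 5' fragments here, those that end in the CCA tail are 3' fragments, and trailers come from the precursor tRNA downstream of its mature end. In the archaeon Haloferax volcanii a 5' fragment of a valine tRNA binds the small ribosomal subunit and lowers translation. In the names, 1:32 gives the first and last base of the mature tRNA, +1:T15 a trailer of 15 nucleotides (nt), and the last number the numbered tRNA gene or sequence. The meaning of the suffix M with a number, carried by 19 of the 48, has no explanation in the sources used.

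The values are CPM, read counts scaled to the library total. The totals implied by the values were 154414 to 374763 reads in saline and 90828 to 128694 in nicotine libraries, so every nicotine library was shallower, and depth and treatment cannot be told apart. One read was worth 2.67 CPM in saline 1 and 11.01 CPM in nicotine 1. Listed fragments took 52.7% to 68.8% of the saline totals and 47.1% to 57.4% of the nicotine totals. Saline 1 and nicotine 1 stood apart from the rest, with factors of 0.736 and 1.27 from the trimmed mean of M values (TMM) scaling and 0.981 to 1.10 in the other 4 libraries. The table holds tRNA fragments and no mRNA, so the tissue label was not checked against marker genes.

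All 3 anticodons gave fragments, in unequal amounts. Val-AAC fragments took 76.5% ± 2.16 (SD, n = 3) of the nuclear valine reads after saline and 77.1% ± 2.59 (SD, n = 3) after nicotine. Val-CAC fragments took 20.9% ± 2.24 and 20.4% ± 3.09, and Val-TAC fragments 2.66% ± 0.828 and 2.53% ± 0.513. The groups overlapped for all 3 shares. For scale, RefSeq lists 43 Val-AAC, 9 Val-CAC and 6 Val-TAC tRNA genes in the rat assembly GRCr8, the same order as the summed reads. Among 5' fragments that end on the first anticodon base, and among trailers, Val-CAC led instead. Copies of a tRNA gene can be identical or nearly so, and how the authors assigned reads that match several copies is not stated, so values of single numbered genes are uncertain.

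By kind, 29 of the 48 were 5' fragments, 10 were 3' fragments, 9 were trailers and 0 were internal. The 5' fragments took 89.7% ± 2.26 of the valine reads in saline and 88.1% ± 4.20 in nicotine. The 3' fragments took 6.19% ± 0.808 and 7.47% ± 3.58, and the trailers 4.15% ± 2.03 and 4.41% ± 1.19. None of these shares separated the groups. The wide spread of the 3' share came with nicotine 1, at 11.6%, against 5.21% to 7.09% in the other 5 libraries. Among the other nuclear fragments the 5' share was 92.6% ± 1.94 in saline and 88.3% ± 2.64 in nicotine without overlap, and the 3' share 3.02% ± 0.637 and 5.15% ± 1.55, also without overlap.

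Few fragments held most of the reads. Mean levels over the 6 libraries ran from 7.18 to 6541 CPM, with 4 members at 1000 CPM or more, 12 between 100 and 1000 CPM and 32 below. The 8 most abundant took 84.9% ± 2.64 of the valine reads after saline and 84.3% ± 2.74 after nicotine. Of the 48, 37 had reads in all 6 libraries and 11 had 0 reads in at least 1. In all, 30 members had fewer than 100 reads over the 6 libraries together, so single reads move their values. A listed fragment reached at least 20 CPM somewhere, and 6 valine members did so in 1 library only, which was nicotine 1 for 3 of them. For the rest it was nicotine 2, except for tRF-1:32-Val-TAC-1, which reached that level only in saline 2. Fewer reads make up 20 CPM in the shallower nicotine libraries, so listing was easier through them.

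The most abundant member was tRF-1:32-Val-AAC-1-M3, a 32-nt fragment that ends in the anticodon loop just before the anticodon. It had 8763, 7914 and 4384 CPM in saline 1, 2 and 3 and 3842, 7589 and 6752 CPM in nicotine 1, 2 and 3. The lowest value was in nicotine 1 and the highest in saline 1, and the groups overlapped. Without nicotine 1 its log2 fold change of nicotine over saline went from -0.21 to 0.090. The 1-nt-shorter tRF-1:31-Val-AAC-1-M3 had 643, 609 and 364 CPM in saline and 396, 687 and 730 CPM in nicotine. Saline 3 and nicotine 1 were the low libraries for both lengths.

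The next, tRF-1:23-Val-AAC-1-M5, shares the start at base 1 and stops 9 nt earlier. It had 1911, 2966 and 3472 CPM in saline and 4536, 4727 and 3481 CPM in nicotine. All 3 nicotine libraries lay above the 3 saline libraries, although saline 3 and nicotine 3 were nearly equal. The shortest abundant member, tRF-1:15-Val-AAC-1-M5, had 1057, 1276 and 1309 CPM in saline and 2136, 1995 and 1943 CPM in nicotine. Here the groups stood apart, and each group was tight. Of all tested fragments 12.6% likewise lay higher in all nicotine libraries, and this one did not pass the test described below. The 15-nt to 23-nt ratio was 0.377 to 0.558 over all 6 libraries, with overlapping groups, so these short 5' fragments kept nearly the same ratio to each other while their ratio to the 32-nt fragment moved. The 23-nt to 32-nt ratio was 0.218, 0.375 and 0.792 in saline and 1.18, 0.623 and 0.516 in nicotine. It overlapped between groups, lowest in saline 1 and highest in nicotine 1, the libraries that stood apart in scaling.

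The tiRNAs, which end on the first anticodon base, were led by Val-CAC. Its tiRNA-1:34-Val-CAC-1-M2 had 3698, 2202 and 2153 CPM in saline and 2510, 4203 and 1507 CPM in nicotine. The one of the same length from Val-AAC, tiRNA-1:34-Val-AAC-1, had 939, 408 and 373 CPM in saline and 595, 752 and 404 CPM in nicotine. Both were high in saline 1 and nicotine 2, and their ratio stayed within 3.73 to 5.77 in every library. The Val-TAC one, tiRNA-1:34-Val-TAC-1, had 125, 117 and 218 CPM in saline and 154, 49.1 and 124 CPM in nicotine, and was lowest in nicotine 2. Another Val-CAC fragment, tRF-1:32-Val-CAC-3, had 656, 771 and 499 CPM in saline and 528, 605 and 901 CPM in nicotine, with overlapping groups.

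**Figure D1:**
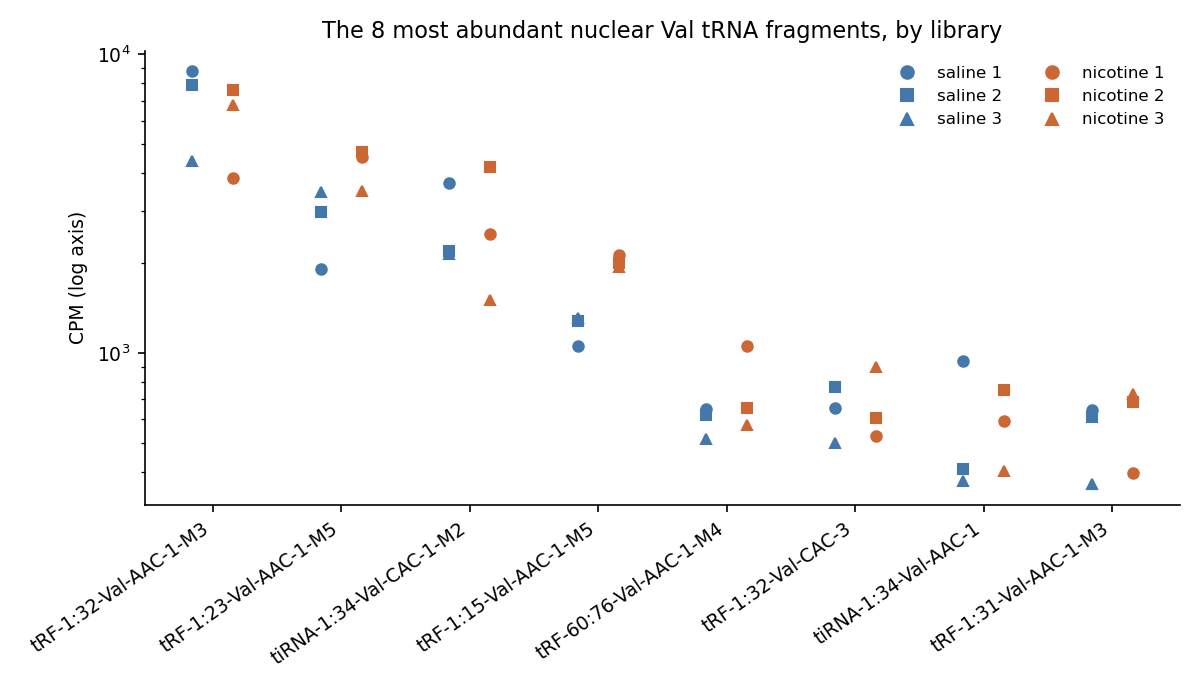
CPM (log axis) of the 8 most abundant nuclear valine tRNA fragments, with 1 point per library, blue for saline and orange for nicotine and a marker shape for each rat number. The groups separate for the 15-nt Val-AAC fragment, 1057 to 1309 against 1943 to 2136 CPM, and barely for the 23-nt one, and overlap for the other 6.

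By fragment name, each anticodon had its own set of 5' lengths. Most 5' fragments end before the anticodon, and whether reads of one valine tRNA carry the name of another was not tested. The Val-AAC reads fell into separate windows of 14 to 16, 22 to 24 and 28 to 32 nt and a peak at 34 nt, each led by 1 length. Within the fragments named Val-AAC-1, the 23-nt fragment took 90.2% to 97.2% of the reads of 22 to 24 nt over the 6 libraries. The 15-nt fragment took 92.2% to 94.9% of those of 14 to 16 nt, and the 32-nt fragment 84.5% to 88.6% of those of 28 to 32 nt. One length therefore dominated each window in every library of both groups.

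Val-CAC 5' reads were mostly of 34 nt, at 78.2% ± 5.92 in saline and 73.2% ± 12.1 in nicotine, followed by 32 nt at 18.9% ± 5.20 and 20.6% ± 12.1. Val-TAC 5' reads were split between 15 nt, at 44.5% ± 10.8 and 55.8% ± 14.7, and 34 nt, at 47.6% ± 12.4 and 38.4% ± 18.3. These groups overlapped. The leading 15-nt Val-TAC fragment, tRF-1:15-Val-TAC-1, had 133, 168 and 116 CPM in saline and 132, 196 and 140 CPM in nicotine. It did not share the separation of its Val-AAC counterpart.

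**Figure D2:**
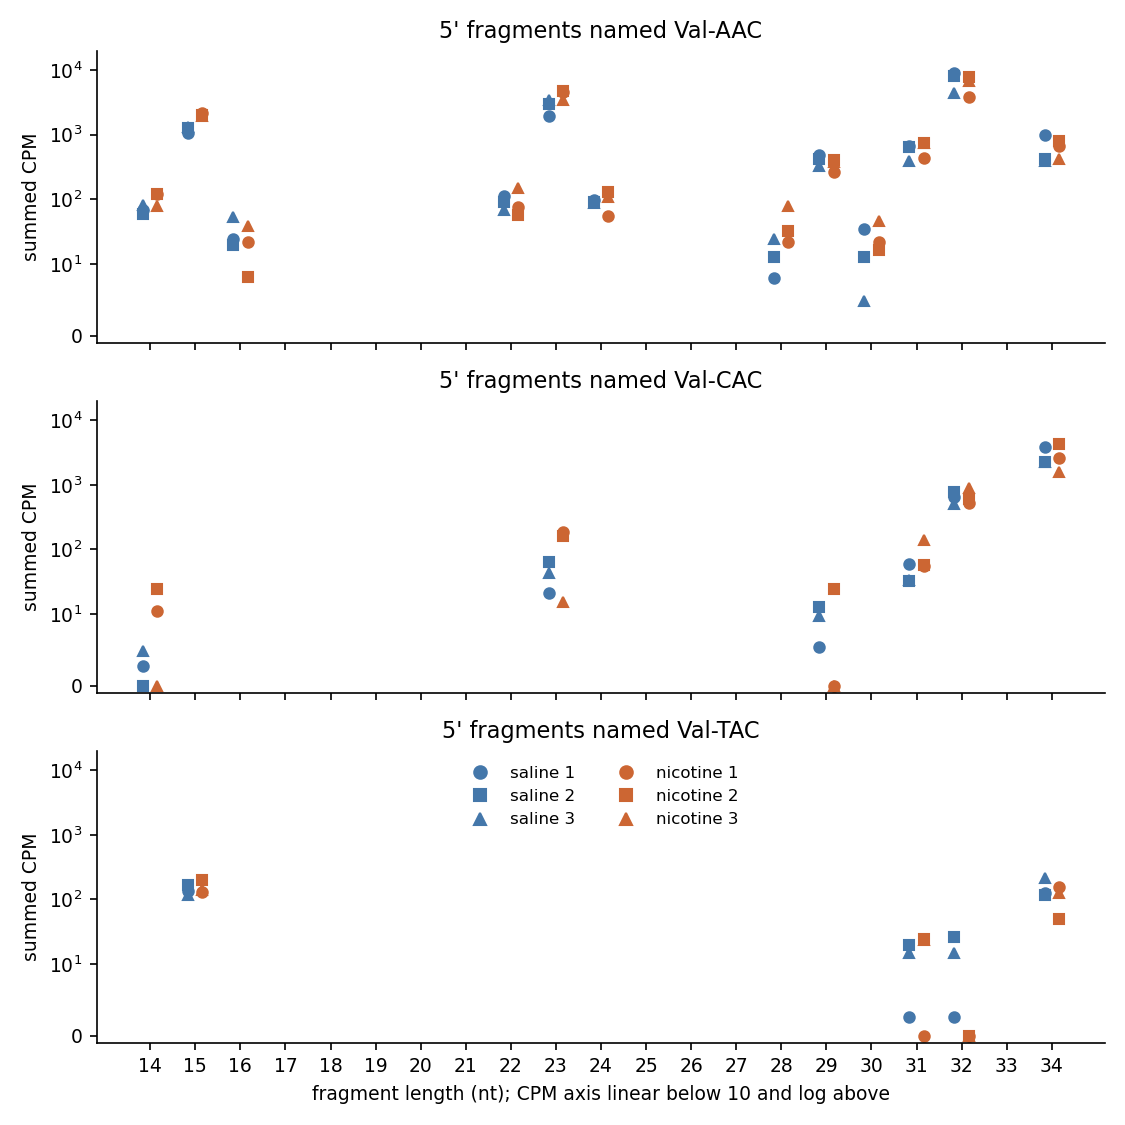
Summed CPM of valine 5' fragments at each length in nt, in a panel per anticodon, with 1 point per library (axis linear below 10 CPM and logarithmic above). By fragment name, Val-AAC has peaks at 15, 23, 32 and 34 nt, Val-CAC at 32 and 34 nt, and Val-TAC at 15 and 34 nt.

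The names of 5' fragments need care. Base 34 is the first anticodon base in the standard tRNA numbering, so 24 of the 29 5' fragments end before the anticodon and 5 end on its first base. Of the reads that end before base 34, 92.0% to 93.8% carried a Val-AAC name and 5.10% to 6.96% a Val-CAC name. Of those that end at base 34, 13.8% to 20.2% carried a Val-AAC name and 73.9% to 83.4% a Val-CAC name. Although Val-CAC-1 gave the most abundant tiRNA, 0 listed fragments named Val-CAC-1 end before base 34. Whether shorter reads from that tRNA were counted under a Val-AAC name was not tested, as it needs the tRNA sequences, which were not used here.

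Among abundant tRNAs, fragments named Val-AAC had the most of their 5' reads in the short windows. Of the 33 nuclear anticodons with 5' fragments, 8 had a mean of at least 1000 CPM in 5' reads. Among those 8, Val-AAC had the largest mean share of its 5' reads at 14 to 16 nt (12.7%) and at 22 to 24 nt (27.5%). Val-CAC, also among the 8, had only 0.172% and 2.23% there and 75.7% at 33 nt or more. These valine shares go by fragment name, and fragments of the short windows end before the anticodon. Whether short Val-CAC reads were counted under a Val-AAC name was not tested. For Gly-CCC, the most abundant, 99.5% of the 5' reads were of 28 to 32 nt, and for Lys-CTT 86.0% were of 33 nt or more. Less abundant tRNAs could be shorter still, so the rank of Val-AAC holds only above that cut of 1000 CPM. At 14 to 16 nt Tyr-GTA had 89.9% of its 5' reads and Val-TAC 50.2%, while Pro-AGG had 0%. Asp-GTC, at a mean of 726 CPM, had 75.0% of its 5' reads at 22 to 24 nt, and Lys-TTT, at 705 CPM, had 32.2% there and 18.1% at 14 to 16 nt. These shares describe the 6 libraries and were not tested between tRNAs.

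Seen from the other side, valine tRNAs gave 64.5%, 69.4% and 75.4% of all nuclear 5' reads of 22 to 24 nt in saline 1, 2 and 3 and 72.8%, 76.6% and 69.6% in nicotine 1, 2 and 3. The groups overlapped, and valine led that window in every library. Of the nuclear 5' reads of 28 to 32 nt they gave only 1.38% to 2.56%, and of those of 33 nt or more 7.32% to 12.8%. At 14 to 16 nt the valine share was 30.2%, 28.2% and 28.01% in saline and 34.9%, 37.8% and 36.7% in nicotine. That share was higher in each nicotine library than in any saline library, at 28.8% ± 1.22 and 36.4% ± 1.49 (SD, n = 3 each). Most valine reads of that window were those of tRF-1:15-Val-AAC-1-M5, with 396 of 482 in saline 1 and 194 of 220 in nicotine 1. The share is therefore not separate from the values of that fragment given above. Why it differed between the groups was not tested.

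**Figure D3:**
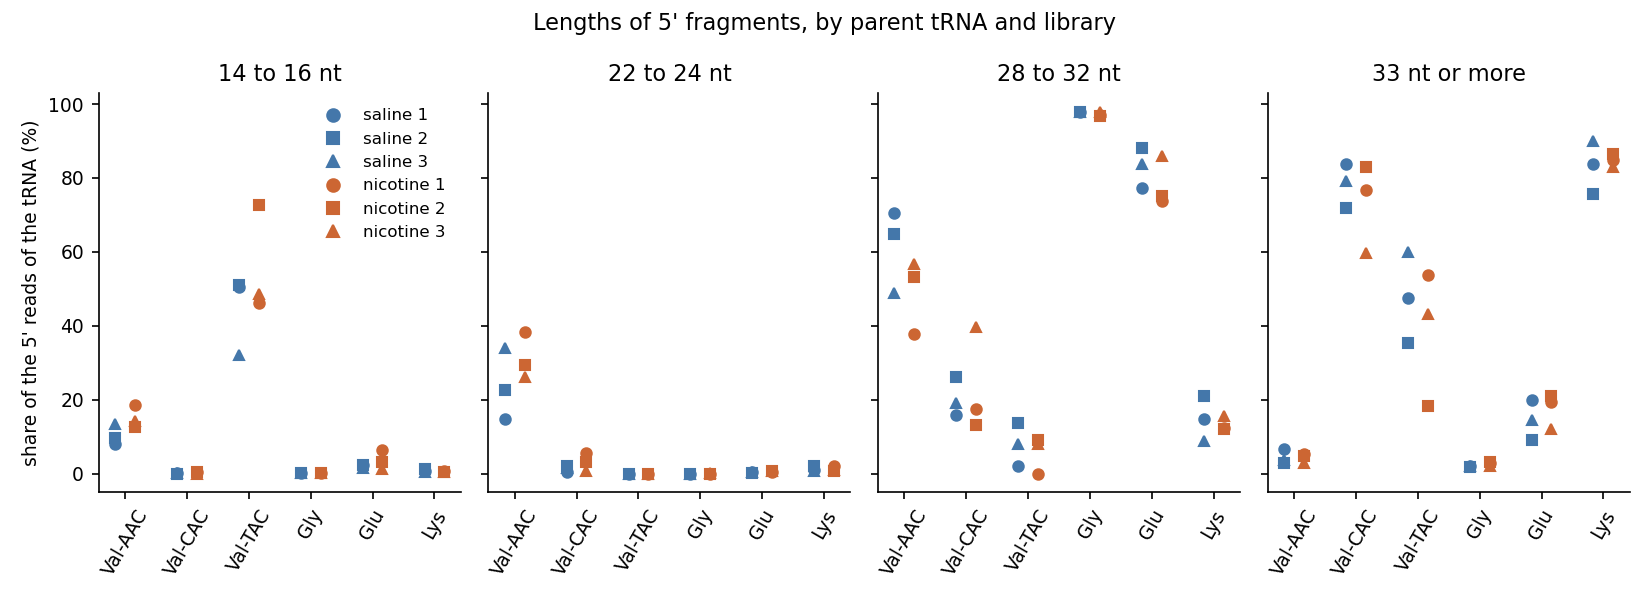
Share of the 5' reads of each parent tRNA (%) in 4 length windows, with 1 point per library, for the 3 valine anticodons and for Gly, Glu and Lys tRNAs. Fragments named Val-AAC have 14.7% to 38.3% of their 5' reads at 22 to 24 nt. In that window Gly, Glu and Lys, each summed over its anticodons, have at most 2.08%. Within Lys, the less abundant Lys-TTT has a mean of 32.2% there.

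The mean length of valine 5' reads was 30.2, 29.1 and 27.99 nt in saline and 26.98, 28.5 and 27.98 nt in nicotine. The means were 29.1 ± 1.13 and 27.8 ± 0.774 nt, with overlapping groups. For the other nuclear 5' fragments they were 31.4 ± 0.128 and 31.4 ± 0.130 nt, so the valine reads were shorter in every library and more variable between libraries. Gly fragments make up most of those reads. Without Gly the means were 30.9 ± 0.546 and 30.6 ± 0.318 nt, a smaller contrast in the same direction. Summed over members, valine 5' fragments of 14 to 16 nt had 1286, 1522 and 1566 CPM in saline and 2422, 2347 and 2199 CPM in nicotine. Those of 22 to 24 nt had 2151, 3264 and 3700 CPM in saline and 4899, 5127 and 3769 CPM in nicotine. Both sums were higher in all nicotine libraries, narrowly so at 22 to 24 nt. As shares of the valine 5' reads both windows overlapped, at 6.67% to 11.2% in saline and 10.5% to 15.2% in nicotine for 14 to 16 nt, and 11.2% to 26.6% and 21.8% to 30.7% for 22 to 24 nt. The members of 28 to 32 nt had 10916, 10018 and 5809 CPM in saline and 5230, 9691 and 9223 CPM in nicotine, which overlap. The other nuclear 5' fragments of 22 to 24 nt also lay higher without overlap, at 1276 ± 141 and 1682 ± 132 CPM, and those of 14 to 16 nt overlapped, at 3619 ± 570 and 4062 ± 403 CPM.

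Valine 3' fragments were mainly 17 and 18 nt long and came mainly from Val-AAC. The leading one, tRF-60:76-Val-AAC-1-M4, spans the last 17 bases with the CCA tail, the amino acid acceptor end. It had 648, 622 and 514 CPM in saline and 1057, 654 and 575 CPM in nicotine. Nicotine 1 was the highest library, and the other 5 lay close together. Fragments of 17 to 18 nt took 91.2% ± 1.93 of the Val-AAC 3' reads in saline and 92.9% ± 3.04 in nicotine. For Val-TAC the longest 3' fragment had the highest mean instead, tRF-55:76-Val-TAC-1 of 22 nt. Its values were 61.4, 58.3 and 58.2 CPM in saline and 33.03, 114 and 117 CPM in nicotine. It rests on 3 reads in nicotine 1 and 23 at most. It did not lead in nicotine 1, and fragments of 17 to 18 nt took 75% of the Val-TAC 3' reads there. The only Val-CAC 3' fragment, tRF-60:76-Val-CAC-3, had 0, 6.48 and 9.70 CPM in saline and 22.02, 8.18 and 7.77 CPM in nicotine, from 7 reads in all.

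Among the trailers the order of anticodons was another one. Val-CAC gave 57.1% ± 10.6 of the valine trailer reads in saline and 63.7% ± 4.79 in nicotine, ahead of Val-AAC at 33.5% ± 9.37 and 25.5% ± 8.70 and Val-TAC at 9.38% ± 1.91 and 10.7% ± 5.81. Trailers carry the run of U at which RNA polymerase III stops, and report on the precursor rather than the mature tRNA. The leading trailer, tRF-+1:T15-Val-CAC-1-3, had 90.7, 311 and 301 CPM in saline and 297, 196 and 381 CPM in nicotine, with saline 1 the low library. Its log2 fold change was 0.46 ± 0.43 (SE) and, without saline 1, -0.12. Its 1-nt-longer form, tRF-+1:T16-Val-CAC-1-3, had 125, 181 and 175 CPM in saline and 286, 213 and 264 CPM in nicotine. That form lay higher in all nicotine libraries.

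The leading trailers of the other anticodons overlapped between groups. For Val-AAC, tRF-+1:T15-Val-AAC-1-4 had 117, 90.7 and 155 CPM in saline and 132, 131 and 62.2 CPM in nicotine. For Val-TAC, tRF-+1:T21-Val-TAC-1 had 21.3, 19.4 and 63.0 CPM in saline and 33.03, 40.9 and 124 CPM in nicotine, highest in rat 3 of each group.

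As a group, nuclear valine fragments had similar totals after saline and nicotine. Their summed level was 20915, 19733 and 15881 CPM in saline and 19091, 24337 and 19418 CPM in nicotine, at 18843 ± 2632 and 20949 ± 2939 (SD, n = 3 each), with overlap. In bulk tissue fewer cells of a type and less of the RNA per cell cannot be told apart. As a share of the listed reads, valine took 3.04%, 3.25% and 3.01% in saline and 3.89%, 4.24% and 4.12% in nicotine. The 95% Wilson intervals, which cover counting error only, ran from 2.91% to 3.36% over the saline libraries and from 3.71% to 4.39% over the nicotine libraries. Shares of listed reads depend on the Gly fragments that make up most of them. With Gly fragments taken out of the denominator the valine share was 19.2%, 15.04% and 12.3% in saline and 14.01%, 19.3% and 13.98% in nicotine, and the groups overlapped.

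Single fragments were compared with limma, fitted to log2(CPM + 1) over the 586 fragments that reached 1 CPM in 3 or more libraries. All 48 valine members passed that filter. At an adjusted p under 0.05, 0 of the 48 were called, against a background of 0% (0 of 586). The adjusted p of the valine members lay between 0.657 and 0.997. At an unadjusted p under 0.05, 1 valine member was called, against 7% (41 of 586) of all fragments. Scaled to the listed reads instead, 5 valine members, 4 of them higher, and 59 of 586 fragments had an unadjusted p under 0.05, and again 0 passed. On recovered reads 0 valine fragments passed with edgeR (20 tested) or DESeq2 (48 tested), and 0 of all fragments did. With either tool 0 valine fragments had an unadjusted p under 0.05, against 13 of 221 fragments with edgeR and 17 of 615 with DESeq2. Fold changes below are nicotine over saline on the log2(CPM + 1) scale; for low fragments the pseudocount sets their size, and a library with 0 reads can enlarge them.

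The member with an unadjusted p under 0.05 was tRF-1:29-Val-AAC-2, a minor 29-nt fragment. It had 37.4, 38.9 and 14.5 CPM in saline and 0, 32.7 and 0 CPM in nicotine, or 23 and 4 reads in all. The groups overlapped, since nicotine 2 lay above saline 3. Its fitted log2 fold change of -3.15 ± 1.43 (SE) depends on the pseudocount at the libraries with 0 reads, went to -1.24 at a pseudocount of 10, and is no bound (unadjusted p = 0.0316, adjusted p = 0.657).

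Of the 48 members, 4 lay higher in all nicotine than in all saline libraries, a share below the background of 12.6% of all tested fragments. These are the 15-nt, 23-nt and 14-nt fragments of Val-AAC-1 and the 16-nt trailer of Val-CAC-1-3. Their log2 fold changes were 0.74 ± 0.37, 0.64 ± 0.38, 0.54 ± 0.54 and 0.67 ± 0.41 (SE), and none passed (adjusted p of 0.657 for the 15-nt fragment and 0.734 for the 23-nt fragment and the trailer). The 14-nt fragment, tRF-1:14-Val-AAC-1-M5, had 64.0, 58.3 and 58.2 CPM in saline and 99.1, 98.1 and 69.9 CPM in nicotine. It differs from the 15-nt fragment by its last base only, so they are not independent. The log2 fold change of the 15-nt fragment was 0.42 with TMM, 0.44 with edgeR and 0.41 with DESeq2, and that of the 23-nt fragment 0.32, 0.34 and 0.30, and 0.39 without saline 1. With TMM scaling the 15-nt fragment and the trailer still lay higher in every nicotine library, and the 14-nt and 23-nt fragments overlapped.

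In the other direction 1 member lay lower in all nicotine libraries, against 1.54% of all fragments. This was tRF-1:32-Val-TAC-1, with 1, 4 and 3 reads in saline and 0 in each nicotine library. Pooled, that is 10.9 CPM in saline against a limit of 8.78 CPM that 3 reads over the nicotine group allow. The ratio of 1.24 leaves out the counting error of the 8 saline reads. The fragment met the filter of 1 CPM in 3 libraries only through the saline libraries, so its lack of overlap is not independent of the filter.

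The direction of the members differed by length. Of the 11 valine 5' fragments of 14 to 24 nt, 9 had a fold change above 0 and the median log2 fold change was 0.54. Of the 18 of 28 to 34 nt, 7 were above 0 and the median was -0.17. These counts are not independent of the listing at 20 CPM. A 14-nt Val-CAC fragment, at 1.28, and a 29-nt one, at -1.74, reached that level only in nicotine 2. The fragment tRF-1:32-Val-TAC-1, at -3.53, did so only in saline 2. Fragments of the same tRNA that start at base 1 also share bases and are not independent of each other. The other nuclear 5' fragments had the same order, with a median of 0.18 over 84 tested at 14 to 24 nt and -0.35 over 97 tested at 28 nt or more. All tested fragments had a median of 0.28 and all 48 valine members one of 0.11, with 28 above 0 and 20 above the median of all. With TMM scaling the median of all fragments was -0.018 and that of the valine members -0.21, so which members lie above 0 depends on the scaling, and the valine median lay below that of all fragments under both.

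**Figure D4:**
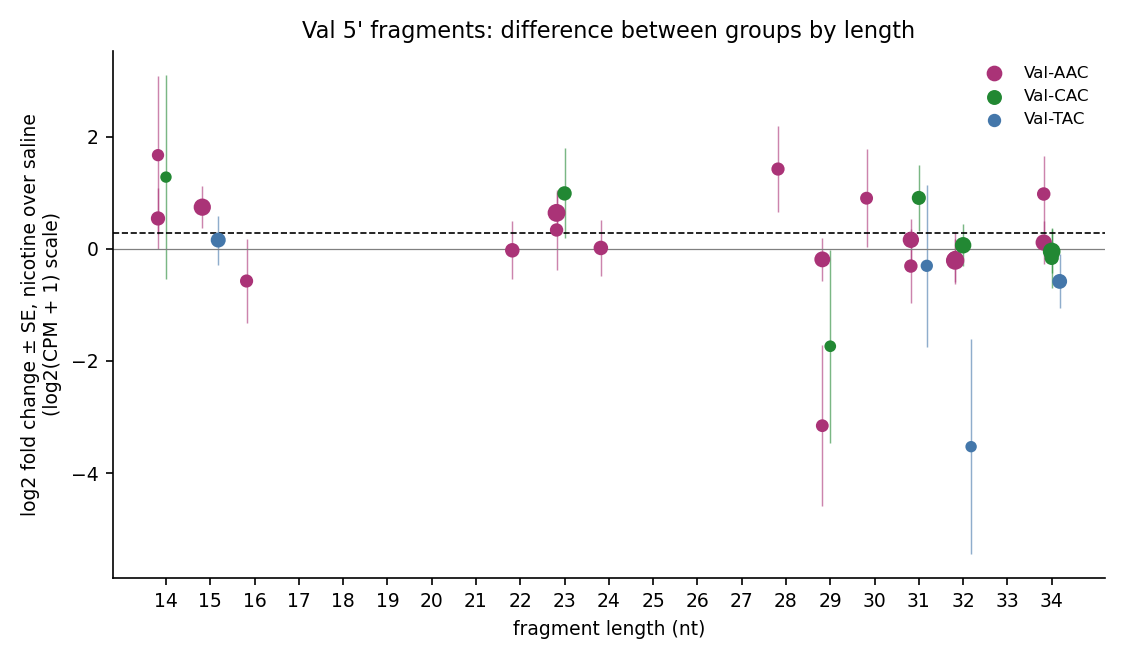
Log2 fold change (nicotine over saline, log2(CPM + 1) scale) with its SE for each of the 29 valine 5' fragments against its length in nt, coloured by anticodon, with larger points for higher mean CPM; the dashed line is the median of all tested fragments. Of the fragments of 14 to 24 nt 9 of 11 lie above 0, and of those of 28 to 34 nt 7 of 18, with the largest SE bars on the least abundant fragments.

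The abundant long fragments had fold changes near 0. The log2 fold change was -0.21 ± 0.39 (SE) for the 32-nt Val-AAC-1 fragment, -0.047 ± 0.39 for the Val-CAC tiRNA, 0.11 ± 0.39 for the Val-AAC tiRNA and 0.063 ± 0.38 for tRF-1:32-Val-CAC-3. Each lay within 1 SE of 0, so no difference was detectable at this spread. The largest fold changes among members with a mean of at least 50 CPM were those of tRF-1:23-Val-CAC-4, tRF-1:31-Val-CAC-3 and tRF-+1:T21-Val-TAC-1, at 0.99 ± 0.80, 0.91 ± 0.59 and 0.87 ± 0.66. The first of these had 21.3, 64.8 and 43.6 CPM in saline and 187, 164 and 15.5 CPM in nicotine, so nicotine 3 lay below every saline library. The second had 58.7, 32.4 and 33.9 CPM in saline and 55.0, 57.2 and 140 CPM in nicotine, and nicotine 3 was its highest library. In the other direction the largest was that of the Val-TAC tiRNA, at -0.58 ± 0.48. Single libraries moved all 4 values. Leaving out each library in turn gave 0.37 (without nicotine 1) to 2.13 (without nicotine 3) for the first and 0.47 (without nicotine 3) to 1.18 (without saline 1) for the second. It gave 0.29 (without nicotine 3) to 1.40 (without saline 3) for the third and -0.90 (without nicotine 1) to -0.088 (without nicotine 2) for the tiRNA.

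**Figure D5:**
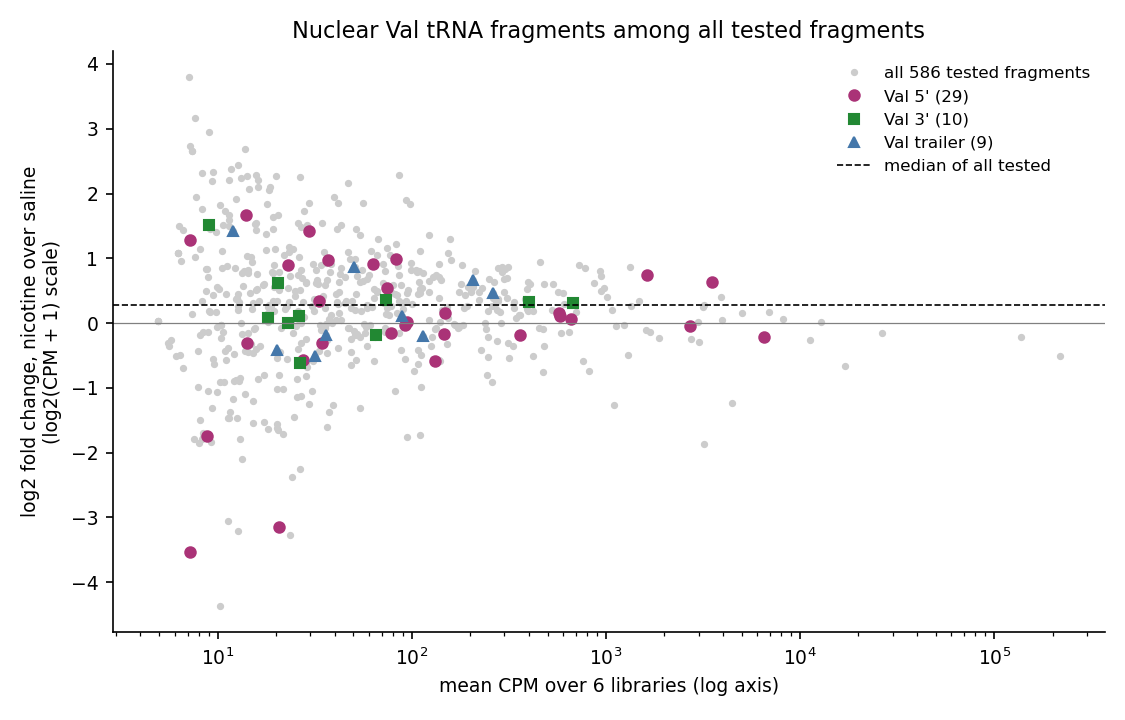
Log2 fold change (nicotine over saline, log2(CPM + 1) scale) against mean CPM over the 6 libraries (log axis) for all 586 tested fragments in grey, with the 29 valine 5' fragments, 10 valine 3' fragments and 9 valine trailers in colour; the dashed line is the median of all tested fragments. The valine members lie within the cloud of the other fragments, and the 2 lowest, at -3.53 and -3.15, have 0 reads in at least 1 nicotine library each.

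By kind, 7 of the 10 valine 3' fragments had a fold change above 0, with a median of 0.21, and 0 of the 10 were without overlap. Among the other nuclear 3' fragments 113 of 130 were above 0, with a median of 0.49, and 23 lay higher without overlap. Of the 9 valine trailers 5 were above 0, with a median of 0.11. The 3 members that reached 20 CPM only in nicotine 1 are among these 3' fragments and trailers. Each of them had a fold change above 0, so these counts are not independent of the listing. The other nuclear trailers had a median of 0.46 over 95 tested. Medians of the 5' fragments of the other abundant tRNAs were -0.35 for Glu (35 tested), -0.082 for Lys (17) and -0.22 for Gly (37), beside 0.063 for the 29 of valine.

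Summing fragments into families by kind and anticodon gave 142 tested families, 9 of them nuclear valine. With limma 0 of the 9 passed at an adjusted p under 0.05, against 0% of all, and 0 had an unadjusted p under 0.05, against 9.15% (13 of 142). Their adjusted p lay between 0.509 and 0.912. With edgeR, whose filter kept 7 of the 9, and with DESeq2, on all 9, 0 valine families passed and 0 had an unadjusted p under 0.05. Over all families 5 of 89 with edgeR and 6 of 147 with DESeq2 had an unadjusted p under 0.05, and 0 passed. The median log2 fold change was 0.30 over the valine families and 0.40 over all families.

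The 3' family of Val-TAC was the only valine family without overlap. It had 90.7, 110 and 82.4 CPM in saline and 132, 164 and 124 CPM in nicotine, with a log2 fold change of 0.56 ± 0.42 (SE, adjusted p = 0.532). That is 1 of 9 families higher, against 15.5% of all families, and 0 of 9 lower, against 0.704%. With TMM, edgeR or DESeq2 scaling 0 valine families were higher without overlap and 1, the 5' family of Val-TAC, was lower. Shares over all families are not given for these scalings, so these counts have no background here. The median log2 fold change of all families was -0.0035 with TMM and 0.40 in the main fit. The Val-TAC 5' family had 319 ± 50.6 and 281 ± 9.84 CPM, with overlap. The 5' share of the Val-TAC reads was 66.4%, 66.2% and 64.7% in saline and 59.1%, 55.0% and 48.7% in nicotine, again without overlap. The Val-TAC reads number 44 to 149 per library. The corresponding 5' shares of Val-AAC, 90.8% ± 1.14 and 89.9% ± 4.87, and of Val-CAC, 88.3% ± 5.63 and 85.1% ± 6.52, overlapped.

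The families that hold most reads were close to level. The 5' family of Val-AAC had 13105 ± 2062 CPM in saline and 14525 ± 2293 in nicotine, a log2 fold change of 0.15 ± 0.28 (SE). The 5' family of Val-CAC had 3506 ± 918 and 3718 ± 1316 CPM, at 0.057 ± 0.32. Both were below 0 with TMM scaling, at -0.26 and -0.35. For the 3' family of Val-AAC, 1067 ± 214 and 1370 ± 601 CPM, the change was 0.30 ± 0.33, with nicotine 1 at 2059 CPM and the other 5 libraries at 853 to 1282 CPM, and -0.040 without nicotine 1. The trailer families of Val-AAC, Val-CAC and Val-TAC had log2 fold changes of -0.087 ± 0.39, 0.49 ± 0.33 and 0.40 ± 0.58, and the 3' family of Val-CAC, 1 fragment of 7 reads, had 1.51 ± 1.47.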

How the data were processed

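Total RNA of each hippocampus was ligated to small RNA adapters, amplified, size-selected on a gel and sequenced, per the labels' protocols. Tools listed in the submitters' processing notes are FastQC, cutadapt and Bowtie. Neither genome build nor tRNA annotation is given in the sources used here. Deposited values were CPM per fragment, per the file headers, except that 2 of the 6 headers name no unit and their values fit CPM. Every value was a whole number of reads within 0.001, so reads and totals were recovered. Members and lists were chosen with earlier results of these data known. Kind and length were read from fragment names.

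The test was limma 3.58.1 (trend, robust) in R 4.3.3 on log2(CPM + 1), two-sided, with Benjamini-Hochberg adjustment over all fragments or families tested. Sums over members got no test. Recovered reads were tested with edgeR 4.0.16 (quasi-likelihood) and DESeq2 1.42.0. The limma fit of fragments was tested on simulated reads with changes larger than those of the abundant valine members. That test does not show how well changes of their size are found. Named members are the 8 most abundant, the most abundant per anticodon and kind, those with an unadjusted p under 0.05 and the 3 largest changes per direction among members averaging 50 CPM or more; tRF-1:32-Val-TAC-1, tRF-1:14-Val-AAC-1-M5 and tRF-+1:T16-Val-CAC-1-3 were named after their values were seen. Replicates differed by more than sampling noise (chi-square per degree of freedom 11.9 to 24.4). The labels number the rats separately, so p-values measure the spread between these rats. No tRNA sequence was used.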

Additional observations from a re-analysis of the deposited data

How the results depend on the processing

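No valine fragment or family passed an adjusted p of 0.05 under any alternative run, which covered scaling, pseudocounts, filters, tools, thinning, leaving out each library and the replicate block. With the replicate block 0 valine fragments and 0 valine families passed, against 1 of 586 fragments and 0 of 142 families. In that fit 2 valine fragments had an unadjusted p under 0.05, against 47 of 586 fragments. Overlap counts do not use the block. Same-numbered libraries deviated together by correlations of 0.0868, 0.109 and 0.161, and each library correlated best with its own number. The sample titles name no pairing. Deviations from a group mean add to 0 within the group, so these correlations are not independent, and they were not tested. Without nicotine replicate 3 the smallest adjusted p of a valine fragment in the limma fit was 0.0794, and 5 of 579 fragments passed. The 4 fragments without overlap and higher became 2 with TMM, edgeR or DESeq2 scaling and without Gly, and 6 scaled to the listed reads. Leaving out a library gave 4 to 11, but it cannot make separated groups overlap and is no check of stability. The 1 lower became 2 with DESeq2, 0 with edgeR, thinning or a filter of 20 CPM, and 0 to 5 on leaving out a library. Shares over all fragments are not given for these runs, so the overlap counts have no background here. The higher valine share of listed reads, 0.983 percentage points, became 0.251 without Gly. On leaving out a library the difference in the Val-AAC share ran from -0.790 to 1.88 and in the 5' share from -3.35 to 0.761 percentage points.

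Several changes, of up to 0.99 in size, turned direction; the cause was not tested. With TMM the log2 fold change was -0.012 for tRF-60:76-Val-AAC-1-M4, -0.26 for tRF-1:32-Val-CAC-3, -0.21 for tiRNA-1:34-Val-AAC-1, -0.16 for tRF-1:31-Val-AAC-1-M3 and -0.17 for tRF-1:15-Val-TAC-1, and for the families -0.12 (3' Val-AAC), -0.26 (5' Val-AAC), -0.35 (5' Val-CAC) and -0.0024 (trailer Val-TAC). With DESeq2 the same 5 fragments had -0.013, -0.25, -0.37, -0.16 and -0.15, and the first 3 families -0.15, -0.31 and -0.41. With edgeR tRF-1:32-Val-CAC-3, tiRNA-1:34-Val-AAC-1, tRF-1:31-Val-AAC-1-M3 and tRF-1:15-Val-TAC-1 had -0.21, -0.35, -0.12 and -0.11, and the 5' families of Val-AAC and Val-CAC -0.14 and -0.21. Without Gly, tRF-1:32-Val-CAC-3 had -0.060, tiRNA-1:34-Val-AAC-1 -0.011 and the 5' family of Val-CAC -0.066. Scaled to the listed reads tRF-1:32-Val-AAC-1-M3 had 0.035, tiRNA-1:34-Val-CAC-1-M2 0.20 and tRF-+1:T15-Val-AAC-1-4 0.037, and the 5' Val-TAC and trailer Val-AAC families 0.072 and 0.16. Thinned, tRF-1:23-Val-CAC-4 had -0.22.

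Leaving out a library gave log2 fold changes of -0.52 to 0.090 for tRF-1:32-Val-AAC-1-M3, -0.42 to 0.32 for tiRNA-1:34-Val-CAC-1-M2, -0.16 to 0.22 for tRF-1:32-Val-CAC-3, -0.13 to 0.53 for tiRNA-1:34-Val-AAC-1, -0.10 to 0.44 for tRF-1:31-Val-AAC-1-M3, -0.12 to 0.76 for tRF-+1:T15-Val-CAC-1-3, -0.019 to 0.30 for tRF-1:15-Val-TAC-1 and -0.39 to 0.15 for tRF-+1:T15-Val-AAC-1-4. For the families it gave -0.040 to 0.51 (3' Val-AAC), -0.21 to 0.28 (5' Val-CAC), -0.32 to 0.26 (trailer Val-AAC) and -0.11 to 0.80 (trailer Val-TAC). Depth limits the 30 members with fewer than 100 reads.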
